A study of Mus musculus with 4 samples.

Results

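Chemokine receptors and GPR15 are the genes described here, 9 members of the 27179 gene identifiers in the count table. They were chosen by name (Ccr1, Ccr2, Ccr4, Ccr8, Ccr9, Cxcr3, Cxcr4, Cxcr6 and Gpr15), and every one of the 9 was found in the table through its NCBI gene identifier. RNA was sequenced from group 2 innate lymphoid cells (ILC2s) that had been sorted out of C57BL/6J mouse colon, with 1 library per mouse from 2 mice fed a high-fiber diet and 2 mice fed a control diet. The labels give neither the kind of fiber, the time on the diet, the age and sex of the mice nor the gates of the sort.

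Chemokine receptors are membrane-spanning proteins coupled to inhibitory G proteins, and they steer lymphocytes along gradients of small secreted chemokines. Which receptors a lymphocyte carries helps to set where it settles: CCR9 is known for the small intestine and GPR15 for the large intestine, while CXCR6 and CCR8 are known from lymphocytes that reside in barrier tissues. ILC2s live in tissues, have no antigen receptor of their own, release IL-5 and IL-13 and are known to move under the control of CCR4, CCR8, CCR9, CXCR4 and CXCR6.

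Library totals were 29263068 and 20750263 counts on the high-fiber diet and 30406730 and 20253987 counts on the control diet. High-fiber library 2 stood apart from the other libraries on the first principal component, which held 45.8% of the variance, so the fits were repeated without each library. The 15 ILC2 marker genes all had counts in every library. Their summed level was 21540 and 20590 CPM (counts scaled to libraries of equal size with TMM factors) on the high-fiber diet and 18700 and 16120 CPM in the control libraries. Il5 alone gave 5889 and 3799 CPM of these sums on the high-fiber diet and 3043 and 2559 CPM on the control diet. Single markers went both ways, such as Gata3 (1296 and 766 CPM against 1615 and 1026) and Il7r (1047 and 1050 CPM against 937 and 851). The sums are therefore no measure of ILC2 content. Of the 11 T cell markers, Cd8a, Cd8b1 and Cd5 had 0 counts in all libraries, Cd4 had 12 counts in high-fiber library 1 only, and Cd6 had 81 in high-fiber library 1 and 189 in control library 1 only. Low counts were present in every library for Cd3e (35 and 108 on the high-fiber diet, 175 and 277 on the control diet), Trac (120 and 216, against 450 and 203) and Cd3d (41 and 92, against 129 and 73). The summed T cell list, most of it from Trbc1, Trbc2 and Cd3g, was at 912 and 1004 CPM in the high-fiber libraries and 928 and 1063 CPM in the control libraries. Of the granulocyte and mast cell markers 7 of 10, and of the epithelial markers 5 of 7, had 0 counts throughout. Epcam, however, had counts in every library (746 and 752 on the high-fiber diet, 757 and 573 on the control diet), and Krt18 had 35 in high-fiber library 1 only. Cpa3 had 0 and 0 counts on the high-fiber diet and 40 and 21 on the control diet, and Fcer1a 32 and 0 against 34 and 20. Prg2 had 40 counts in high-fiber library 2 only.

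The receptors are clustered in the genome. In the GRCm38 assembly 6 of the 9 genes lie on chromosome 9, and Ccr9 (123767211 to 123783457), Cxcr6 (123806477 to 123811754), Ccr1 (123962126 to 123968692) and Ccr2 (124101918 to 124109140) share a stretch of 341.9 kb. Ccr4 (114490316 to 114505476) and Ccr8 (120092133 to 120094906) lie elsewhere on the same chromosome. Cxcr4 lies on chromosome 1 (128588199 to 128592299), Gpr15 on chromosome 16 (58716643 to 58718872) and Cxcr3 on chromosome X (101731535 to 101734147). Cxcr6 lies inside Fyco1, a gene on the other strand, and Ccr9 overlaps the long noncoding gene Gm17021. Fyco1 held 1357 and 1177 counts on the high-fiber diet and 1782 and 875 counts on the control diet, far below those of Cxcr6.

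The 250 bases before the start of transcription are shown for the 2 receptors with the highest level, Ccr8 and Cxcr6, for Ccr2, the member with the smallest p, and for the colon receptor Gpr15. They were taken from RefSeq on GRCm38.p6, where an entry was found for all 9 members, and each is written 5′ to 3′ on the strand of its gene. For Ccr2 and Ccr4 the RefSeq entry uses a start of transcription inside the full extent of the gene given above, so these 2 windows lie within that extent. The windows are chr9:120091883-120092132 on the plus strand for Ccr8, chr9:123806227-123806476 on the plus strand for Cxcr6, chr9:124101933-124102182 on the plus strand for Ccr2 and chr16:58718873-58719122 on the minus strand for Gpr15. Capitals mark matches, on either strand, to AGATAA (the GATA motif, read by GATA3 among others), TGTGGT (RUNX), TGANTCA (AP-1), AGGTCA (ROR) or GCGTG (the core read by the aryl hydrocarbon receptor).
Ccr8: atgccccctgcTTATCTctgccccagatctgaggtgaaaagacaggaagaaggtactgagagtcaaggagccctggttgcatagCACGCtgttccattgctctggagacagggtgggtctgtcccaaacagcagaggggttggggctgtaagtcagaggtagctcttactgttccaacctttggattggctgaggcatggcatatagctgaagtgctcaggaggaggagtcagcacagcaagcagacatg
Cxcr6: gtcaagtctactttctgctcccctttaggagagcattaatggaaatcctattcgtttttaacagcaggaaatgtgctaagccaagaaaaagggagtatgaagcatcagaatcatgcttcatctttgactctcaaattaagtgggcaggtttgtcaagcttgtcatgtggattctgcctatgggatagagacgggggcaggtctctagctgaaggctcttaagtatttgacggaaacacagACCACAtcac
Ccr2: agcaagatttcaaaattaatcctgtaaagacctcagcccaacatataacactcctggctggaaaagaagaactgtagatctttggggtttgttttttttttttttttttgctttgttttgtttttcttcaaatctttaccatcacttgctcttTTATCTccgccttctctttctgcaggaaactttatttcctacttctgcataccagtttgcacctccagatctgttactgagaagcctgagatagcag
Gpr15: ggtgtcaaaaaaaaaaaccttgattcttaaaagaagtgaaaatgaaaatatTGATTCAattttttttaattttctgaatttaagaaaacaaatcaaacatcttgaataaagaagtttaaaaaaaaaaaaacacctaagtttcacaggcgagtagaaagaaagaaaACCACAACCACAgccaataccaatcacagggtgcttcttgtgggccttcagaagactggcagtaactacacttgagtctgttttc

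The AGATAA letters, or their reverse complement, stood once each in the windows of Ccr8 and Ccr2, and in 2 of the 9 members against 9.99% of all 32817 such windows. The TGTGGT letters stood in 4 of 9 (once in Cxcr6, Ccr1 and Cxcr3 and at 2 adjacent places in Gpr15) against 14.0% of all windows. GCGTG stood in 4 of 9 (Ccr8, Ccr1, Cxcr3 and Cxcr4) against 28.1%, and AGGTCA in 0 of 9 against 14.0%. TGANTCA stood in 2 of 9 (TGATTCA in Gpr15 and TGAGTCA in Ccr4) against 6.75%. N stands for any base here, so this pattern is wider than the strict AP-1 site. Such a match is a run of letters and not a measured binding site, and these windows were not tested against each other.

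Mean levels of the receptors spanned 0.232 to 3246 CPM per kilobase. Compared per length of exon, Ccr8 was the most abundant with a mean of 3246 CPM per kilobase over the 4 libraries (range 2919 to 3859), and Cxcr6 followed with 2141 CPM per kilobase (1726 to 2457). In these units Ccr8 ranked between 5 and 9, and Cxcr6 between 14 and 24, among the 14353 genes that had a count and an exon length. Ccr8 stood above Cxcr6 per kilobase in 4 of 4 libraries, and their ranges did not overlap. Cxcr6 in turn stood 52.8-fold above the next receptor.

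Ccr4 (mean 40.6 CPM per kilobase), Ccr2 (23.9) and Cxcr4 (22.1) formed the middle of the order, with overlapping ranges between neighbours. Per kilobase Ccr4 stood above Ccr2 in 3 of 4 libraries and Ccr2 above Cxcr4 in 2 of 4. In CPM, without exon length, Ccr2 stood above Ccr4 in every library but high-fiber library 1. The order of these genes thus rests on the exon lengths used (6760 bp for Ccr2 and 2910 bp for Ccr4). Cxcr4 was 10.3-fold above Ccr1 with no overlap of their ranges. Ccr1 (2.14), Ccr9 (1.89), Gpr15 (0.836) and Cxcr3 (0.232 CPM per kilobase) came last, and each of them overlapped with its neighbour. Together Ccr8 and Cxcr6 held 95.7% and 96.8% of the summed CPM of the 9 receptors on the high-fiber diet and 96.2% and 94.8% on the control diet.

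**Figure D1:**
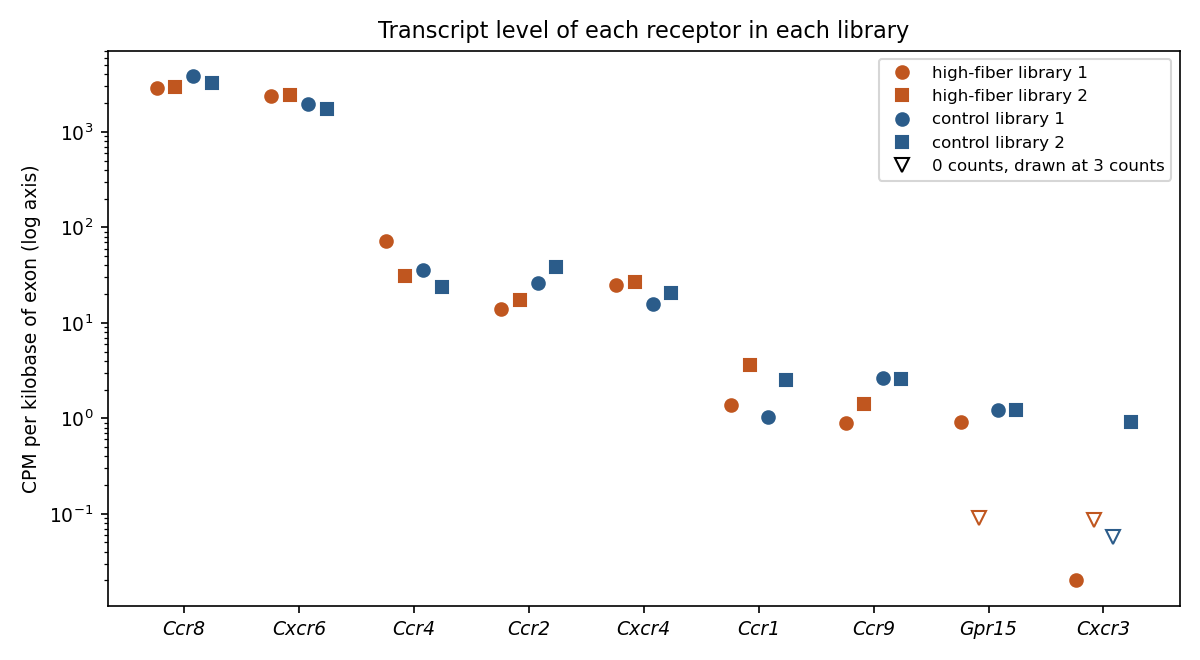
Level of each of the 9 receptors in each library, in CPM per kilobase of exon on a log axis, with high-fiber libraries in orange and control libraries in blue. Ccr8 and Cxcr6 lie at 1726 or more in every library, Ccr4, Ccr2 and Cxcr4 between 13.9 and 72.0, and open triangles mark 0 counts, drawn at the level of 3 counts.

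The comparison of diets asked whether any of these receptor transcripts differed in colonic ILC2s with the high-fiber diet. None of the 8 receptors that entered the test passed edgeR's quasi-likelihood test at an adjusted p under 0.05, with adjusted p from 0.447 to 0.919. The same test called 4 of 11841 genes in all, or 0.0338%, so few genes passed anywhere. DESeq2 and limma-voom also called 0 of the receptors, against 1.88% of genes called by DESeq2 (1.26% higher and 0.621% lower) and 0 genes by limma-voom. Only Ccr2 lay at an unadjusted p under 0.05, on the lower side, where 4.1% of tested genes lay (4.7% lay on the higher side, 8.8% in all). Of the 8, 4 had positive and 4 negative log2 fold changes, and their median was 0.057, beside -0.016 over all tested genes. In 6 of the 8 the diets did not overlap (2 higher and 4 lower on the high-fiber diet), against 38.2% of tested genes (18.5% higher and 19.6% lower). Among the 4 lower was Gpr15 with only 43 and 0 counts against 60 and 42, where counting error alone spans the gap of high-fiber library 1.

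**Figure D2:**
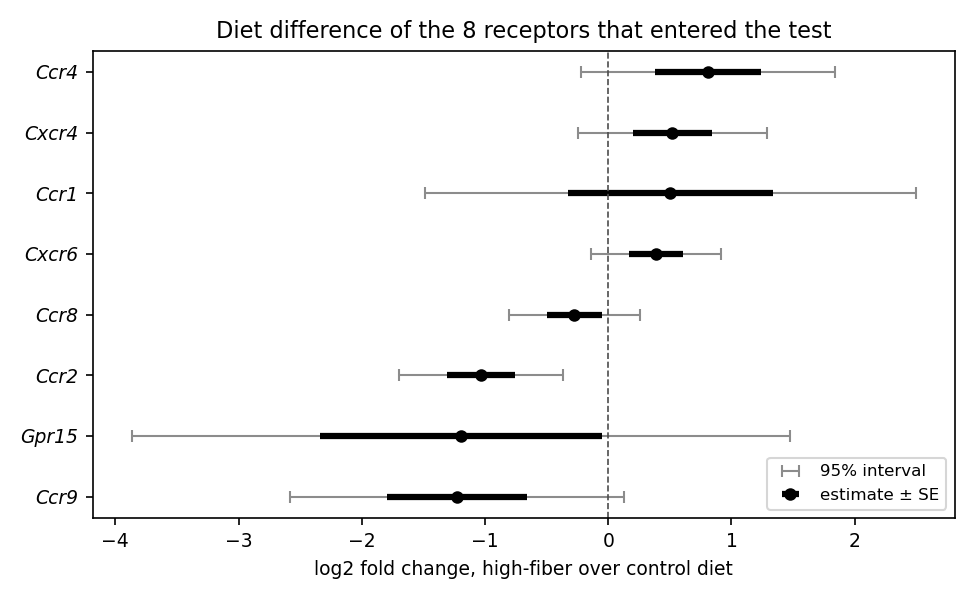
Log2 fold change, high-fiber over control diet, of the 8 receptors that entered the test, with the SE as a thick bar and the 95% interval of edgeR's quasi-likelihood fit as a thin bar. The interval of Ccr2 (-1.70 to -0.36) lies below 0 before adjustment over all genes, and the other 7 intervals include 0.

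Ccr2, the receptor of the monocyte chemoattractants CCL2, CCL7 and CCL12, had 2720 and 2406 counts (94.2 and 118 CPM) in the high-fiber libraries and 5329 and 5404 counts (176 and 257 CPM) in the control libraries. Both high-fiber libraries were below both control libraries. The log2 fold change was -1.03 ± 0.28 (SE, n = 2 mice each), a ratio of 0.489, with an unadjusted p of 0.00860 and an adjusted p of 0.447 by edgeR. It ranked 193 by p among the 11841 genes. DESeq2 gave an adjusted p of 0.0665, and without each library in turn values from 0.0216 (without high-fiber library 2) to 0.983 (without control library 2). Without each library in turn the edgeR log2 fold change lay between -1.28 and -0.74. Summed CPM of the 12 macrophage, monocyte and dendritic cell markers, cells that also use Ccr2, were 162 and 197 on the high-fiber diet and 73.5 and 160 on the control diet. Of these markers Itgax had 0 counts in all libraries. Their part in the level of Ccr2 was not tested. In a bulk library fewer cells that express a gene and less RNA per cell cannot be told apart.

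Ccr8, the receptor of CCL1 and in mice also of CCL8, was at 3429 and 3476 CPM in the high-fiber libraries and 4534 and 3815 CPM in the control libraries. Its log2 fold change was -0.27 ± 0.22 (95% interval -0.81 to 0.26, adjusted p = 0.802 by edgeR), and lay between -0.40 and -0.14 without each library. Cxcr6, the receptor of the membrane-bound chemokine CXCL16, was at 4630 and 4744 CPM in the high-fiber libraries and 3833 and 3332 CPM in the control libraries. Its log2 fold change was 0.39 ± 0.22 (95% interval -0.14 to 0.91, adjusted p = 0.702 by edgeR), and lay between 0.29 and 0.49 without each library. In both genes the diets did not overlap, and the signs were opposite.

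The order of these 2 receptors by counts therefore differed between the diets. This crossing holds for counts only and rests on the exon lengths (1175 bp for Ccr8 and 1931 bp for Cxcr6). Per kilobase Ccr8 stood above Cxcr6 in 4 of 4 libraries. Cxcr6 had more counts than Ccr8 in both high-fiber libraries (133658 against 99008, and 96662 against 70827), and fewer in both control libraries (115759 against 136931, and 69935 against 80079). The ratio of Ccr8 to Cxcr6 counts was 0.741 and 0.733 on the high-fiber diet and 1.18 and 1.14 on the control diet. On the log2 scale it averaged -0.44 ± 0.011 on the high-fiber diet and 0.22 ± 0.033 on the control diet (SD, n = 2 each), a difference of -0.66. This ratio was chosen after its values were seen. It is taken within a library and does not depend on the scaling of libraries. An exact two-sided permutation test over the 4 libraries gave p = 0.333, the smallest that 2 against 2 allows. Of the summed CPM of the 9 receptors, Ccr8 held 40.7% and 40.9% on the high-fiber diet and 52.1% and 50.6% on the control diet.

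**Figure D3:**
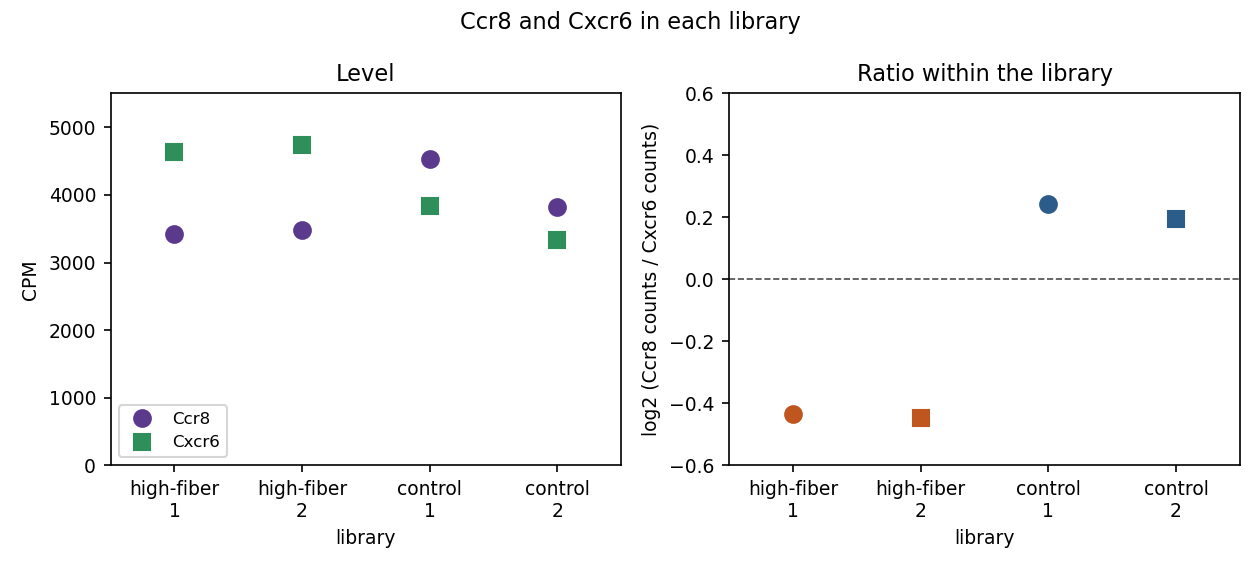
Left, CPM of Ccr8 (circles) and Cxcr6 (squares) in each library. Right, log2 ratio of Ccr8 to Cxcr6 counts within each library. It is -0.43 and -0.45 in the high-fiber libraries (orange) and 0.24 and 0.20 in the control libraries (blue). The diets lie on either side of the dashed line of equal counts, but per kilobase Ccr8 stood above Cxcr6 in 4 of 4 libraries.

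Ccr4, the receptor of CCL17 and CCL22 that is typical of type 2 lymphocytes, was at 210 and 90.9 CPM in the high-fiber libraries and 103 and 68.5 CPM in the control libraries. High-fiber library 1 alone was high, and the diets overlapped. The log2 fold change was 0.81 ± 0.43 (adjusted p = 0.678 by edgeR), and it was 0.098 without high-fiber library 1 and 1.27 without high-fiber library 2. Without high-fiber library 2 DESeq2 called Ccr4 higher (adjusted p = 0.0233), but not with all libraries (0.595) or without any other library (0.728 or more).

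Cxcr4, the receptor of CXCL12 that also holds lymphoid progenitors in the bone marrow, was at 45.3 and 48.2 CPM in the high-fiber libraries and 28.5 and 37.2 CPM in the control libraries. Both high-fiber libraries were above both control libraries. Its log2 fold change was 0.52 ± 0.32 (95% interval -0.24 to 1.28, adjusted p = 0.729 by edgeR) and stayed between 0.33 and 0.71 without each library. The 7 B and plasma cell markers, from cells that also carry Cxcr4, summed to 342 and 1226 CPM in the high-fiber libraries and 156 and 39.1 CPM in the control libraries, and their part in the level of Cxcr4 was not tested.

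Ccr9, the receptor of CCL25 that guides lymphocytes to the small intestine, had 143 and 162 counts (4.95 and 7.95 CPM) in the high-fiber libraries and 447 and 304 counts (14.8 and 14.5 CPM) in the control libraries. Both high-fiber libraries lay below both control libraries, and the control libraries were close to each other. The log2 fold change was -1.23 ± 0.57 (95% interval -2.58 to 0.13, adjusted p = 0.625 by edgeR), between -1.57 and -0.86 without each library.

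Ccr1, a receptor of CCL3 and CCL5 that is frequent on monocytes and other myeloid cells, was at 3.88 and 10.4 CPM in the high-fiber libraries and 2.95 and 7.10 CPM in the control libraries. In each diet library 2 was the higher, so the diets overlapped. The log2 fold change was 0.50 ± 0.83 (adjusted p = 0.919 by edgeR), and it was -0.29 without high-fiber library 2 and -0.066 without control library 1. The summed macrophage, monocyte and dendritic cell markers given for Ccr2 were also higher in library 2 of each diet, but not every marker was. Cd14 was at 35.6 and 19.1 CPM in the high-fiber libraries and 15.5 and 19.2 CPM in the control libraries, and Adgre1 at 0.312 and 5.54 CPM in the high-fiber libraries and 3.48 and 0 CPM in the control libraries. The part of such cells in the level of Ccr1 was not tested.

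Gpr15, which directs lymphocytes to the large intestine, was near the lower end of what these libraries resolve. It had 43 and 0 counts on the high-fiber diet and 60 and 42 counts on the control diet, which are 1.49 and 0 CPM against 1.99 and 2.00 CPM. The 0 of high-fiber library 2 allows up to 3 counts, or 0.147 CPM. The 95% Poisson intervals, which cover counting error only, were 1.08 to 2.01 CPM in high-fiber library 1 and 1.52 to 2.56 and 1.44 to 2.71 CPM in the control libraries, and these 3 intervals overlapped. The log2 fold change was -1.20 ± 1.14 (adjusted p = 0.836 by edgeR), and -0.42 without high-fiber library 2. High-fiber library 2 had 0 counts in 90 genes that held at least 40 counts in each of the other 3 libraries, against 11 such genes for high-fiber library 1, 32 for control library 1 and 26 for control library 2. The limit of 40 counts was chosen after the values of Gpr15 were seen.

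Cxcr3, the receptor of the interferon-induced chemokines CXCL9 and CXCL10 and a marker of type 1 lymphocytes, had 1 and 0 counts on the high-fiber diet and 0 and 33 counts on the control diet. It did not enter the test, and 33 of its 34 counts came from control library 2 (1.57 CPM, 95% Poisson interval 1.08 to 2.21). Summed CPM of the 7 NK cell and ILC1 markers were 24.8 and 0.049 on the high-fiber diet and 44.1 and 25.9 on the control diet. Prf1 alone gave 22.0 and 0 CPM of these sums on the high-fiber diet and 16.6 and 21.7 CPM on the control diet. Eomes and Klra8 were at 0 counts throughout. Tbx21, which encodes the type 1 factor T-bet, had 38 and 0 counts on the high-fiber diet and 498 and 48 on the control diet. Ncr1 had 40 and 0 counts on the high-fiber diet and 330 and 0 on the control diet, so both stood highest in control library 1, where Cxcr3 had 0 counts. Klrb1c had 0 and 1 counts on the high-fiber diet and 0 and 39 on the control diet. Their part in the counts of Cxcr3 was not tested.

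**Figure D4:**
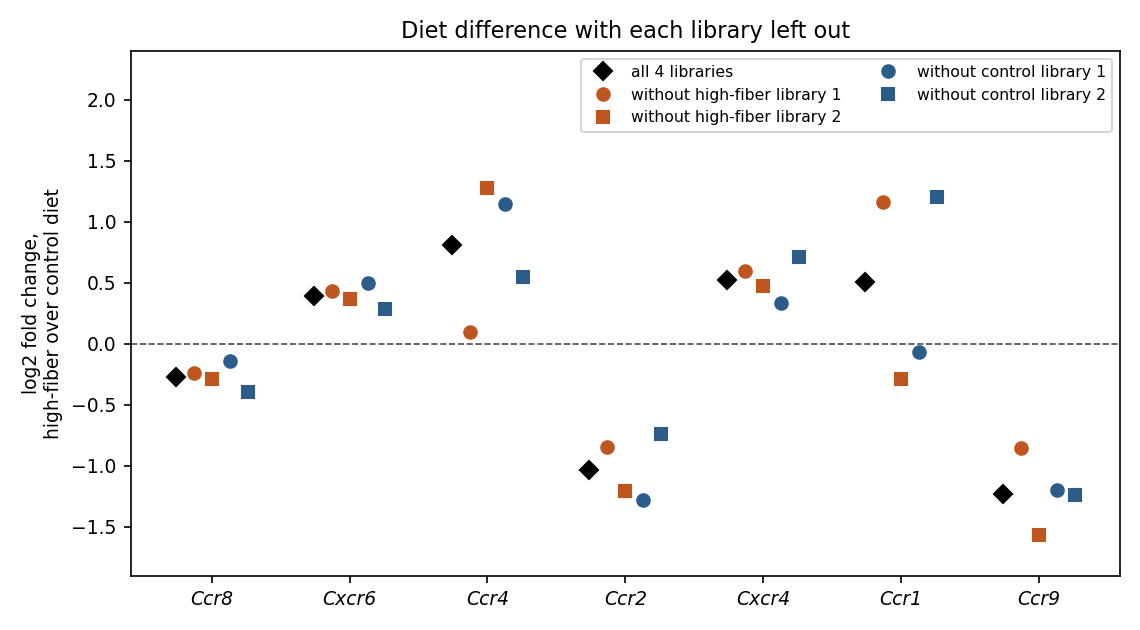
Log2 fold change, high-fiber over control diet, of 7 receptors with all 4 libraries (black diamonds) and with each library left out (orange, a high-fiber library left out; blue, a control library left out). Ccr1 changes sign without high-fiber library 2 (-0.29) or control library 1 (-0.066), and the other 6 keep their sign. Where the diets did not overlap (Ccr2, Ccr8, Ccr9, Cxcr4 and Cxcr6), leaving out a library could hardly change the sign.

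Of the 11 other chemokine receptors, 7 had any count and 4 entered the test. Ccr6, Cxcr1, Cxcr2 and Ccr1l1 had 0 counts in all libraries. None of the 4 tested passed with edgeR, DESeq2 or limma-voom, and 0 lay at an unadjusted p under 0.05. Ccr7, which leads lymphocytes to lymph nodes, was the most abundant at 60.8 and 48.8 CPM in the high-fiber libraries and 9.34 and 39.9 CPM in the control libraries (1.23 ± 0.60, adjusted p = 0.651 by edgeR). Control library 1 alone was low, and the log2 fold change was 0.46 without it. Without control library 2 it was 2.55, and DESeq2 called Ccr7 higher there (adjusted p = 0.00676), but not with all libraries (0.615) or without any other library (0.537 or more). Cx3cr1, the receptor of fractalkine, was at 0.035 and 1.23 CPM in the high-fiber libraries and 0 and 4.67 CPM in the control libraries (log2 fold change -1.87, 95% interval -6.01 to 2.27, adjusted p = 0.836 by edgeR). Xcr1, known from cross-presenting dendritic cells, was at 31.4 and 37.5 CPM in the high-fiber libraries and 60.8 and 28.3 CPM in the control libraries.

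Among 7 atypical receptors, which bind chemokines or related ligands without classical signalling, Ccrl2 alone entered the test. Next in level were Ackr1, with 27 counts in high-fiber library 1 only, and Ackr3, with 7 counts in control library 2 only. Ccrl2, which binds the chemoattractant chemerin, was at 332 and 325 CPM in the high-fiber libraries and 628 and 547 CPM in the control libraries, with no overlap. The log2 fold change was -0.84 ± 0.20 (unadjusted p = 0.00523, adjusted p = 0.447 by edgeR). DESeq2 called Ccrl2 lower (adjusted p = 0.0165), but not without control library 1 (0.911) or control library 2 (0.491). Limma-voom gave an adjusted p of 0.592.

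Of the 19 ligands of these receptors, 15 entered the test and 0 passed with edgeR, DESeq2 or limma-voom. An unadjusted p under 0.05 by edgeR was reached by 3 that were higher and 1 that was lower, beside 4.7% and 4.1% of all tested genes. Ccl1, the ligand of CCR8, was by far the most abundant with a mean of 934 CPM per kilobase. It was at 293 and 546 CPM in the high-fiber libraries and 707 and 745 CPM in the control libraries (-0.79 ± 0.31, unadjusted p = 0.0416, adjusted p = 0.534 by edgeR). Thus both Ccr8 and its ligand Ccl1 had negative log2 fold changes that did not pass. Ccl8, the other mouse ligand of CCR8 named above, went the other way (1.66 ± 1.04, adjusted p = 0.736 by edgeR). It was at 2.60 and 14.1 CPM in the high-fiber libraries and 2.62 and 2.14 CPM in the control libraries. DESeq2 called Ccl1 lower without high-fiber library 2 (adjusted p = 4.43e-06) but not with all libraries (0.357) or without any other library (0.361 to 0.984).

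Next in level per kilobase were Cxcl10 and Ccl7. Cxcl10, a ligand of CXCR3, was at 46.7 and 48.1 CPM in the high-fiber libraries and 39.0 and 73.0 CPM in the control libraries (-0.22 ± 0.37). Ccl7, a ligand of CCR2, was at 9.46 and 33.2 CPM in the high-fiber libraries and 7.28 and 20.4 CPM in the control libraries (0.63 ± 0.77). In both the diets overlapped.

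The 3 ligands higher at an unadjusted p under 0.05 were scarce. Ccl5 was at 4.36 and 10.99 CPM in the high-fiber libraries and 1.62 and 0.572 CPM in the control libraries (2.61 ± 0.97, adjusted p = 0.499 by edgeR), and Ccl9 at 1.25 and 3.09 CPM in the high-fiber libraries and 0.033 and 0.143 CPM in the control libraries (4.61 ± 1.58). Cxcl11, a ligand of CXCR3, had 18 and 40 counts (58 in all) on the high-fiber diet and 0 on the control diet. Against 3 counts over the control group, which cover counting error only, this is at least 20.1-fold higher. Cxcl11 and Ccl9 (36 and 63 counts against 1 and 3) passed the expression filter only through the high-fiber libraries. Their place among the higher ligands is therefore no separate support for a diet difference. Cxcl9 and the GPR15 ligand gene, listed as 2610528A11Rik, had 0 counts in all libraries. Cxcl12, the ligand of CXCR4, had 1 count in high-fiber library 2.

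Genes that relay the receptor signal gave the smallest p of the 5 lists, without passing edgeR over all genes (0 of 23 tested). At an unadjusted p under 0.05 by edgeR 3 were higher and 1 was lower, beside 4.7% and 4.1% of all tested genes. The lower one was Pik3r5 (-1.17 ± 0.47, unadjusted p = 0.0445 by edgeR). Gnb1, a G protein beta subunit, was at 575 and 820 CPM in the high-fiber libraries and 272 and 185 CPM in the control libraries (1.61 ± 0.29, unadjusted p = 0.00112, adjusted p = 0.358 by edgeR). Gng2, a gamma subunit that pairs with it, was at 121 and 155 CPM in the high-fiber libraries and 53.0 and 64.6 CPM in the control libraries (1.23 ± 0.27, adjusted p = 0.447 by edgeR). In both genes the diets did not overlap. DESeq2 called both higher (adjusted p = 5.08e-05 for Gnb1 and 0.00793 for Gng2), and limma-voom called neither. Without control library 2 both calls ended (0.0706 and 0.180), and that of Gng2 also ended without high-fiber library 2 (0.180) or control library 1 (0.479). Grk6, a kinase that desensitizes such receptors, was at 155 and 108 CPM in the high-fiber libraries and 70.1 and 36.6 CPM in the control libraries (1.29 ± 0.37, adjusted p = 0.447 by edgeR). DESeq2 called Grk6 higher without high-fiber library 2 (adjusted p = 0.0312) or control library 1 (0.0164), but not with all libraries (0.0665) or without high-fiber library 1 (0.163) or control library 2 (0.803). Plcb2, a phospholipase, was at 26.3 and 2.16 CPM in the high-fiber libraries and 27.0 and 25.6 CPM in the control libraries, so high-fiber library 2 alone was low. DESeq2 called Plcb2 lower without high-fiber library 1 (adjusted p = 7.65e-05), but not with all libraries (0.93) or without any other library (0.999 or more). Rac2, a small GTPase of moving leukocytes, had the highest level of the list at a mean of 428 CPM per kilobase, with a log2 fold change of 0.11 ± 0.24. Gnai2, the main inhibitory alpha subunit of lymphocytes, had a log2 fold change of 0.26 ± 0.30, and Gnai3 one of 0.053 ± 0.20.

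Among 14 genes of tissue egress and adhesion, 13 entered the test and 0 passed with edgeR, DESeq2 or limma-voom. Cd69, which retains lymphocytes in tissue, was at 1703 and 2691 CPM in the high-fiber libraries and 3327 and 3778 CPM in the control libraries (-0.69 ± 0.28, unadjusted p = 0.0445, adjusted p = 0.545 by edgeR). Its log2 fold change ran from -1.07 without high-fiber library 2 to -0.37 without high-fiber library 1. DESeq2 called Cd69 lower without high-fiber library 2 (adjusted p = 0.00011), but not with all libraries (0.336) or without any other library (0.321 or more). Itgb7, an integrin chain of gut homing, was at 637 and 309 CPM in the high-fiber libraries and 780 and 719 CPM in the control libraries, and DESeq2 called it lower without high-fiber library 1 (adjusted p = 4.74e-06) but not with all libraries (0.588) or without any other library (0.991 or more). Selplg, which encodes a selectin ligand, had a log2 fold change of -0.40 ± 0.20, and Gpr183, a receptor for oxysterols, one of -0.39 ± 0.20. Median log2 fold changes were 0.42 for the other chemokine receptors, 0.31 for the ligands, 0.32 for receptor signalling and -0.12 for egress and adhesion, beside -0.016 over all tested genes. The median of the ligands was the same with Cxcl11 at its bound.

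**Figure D5:**
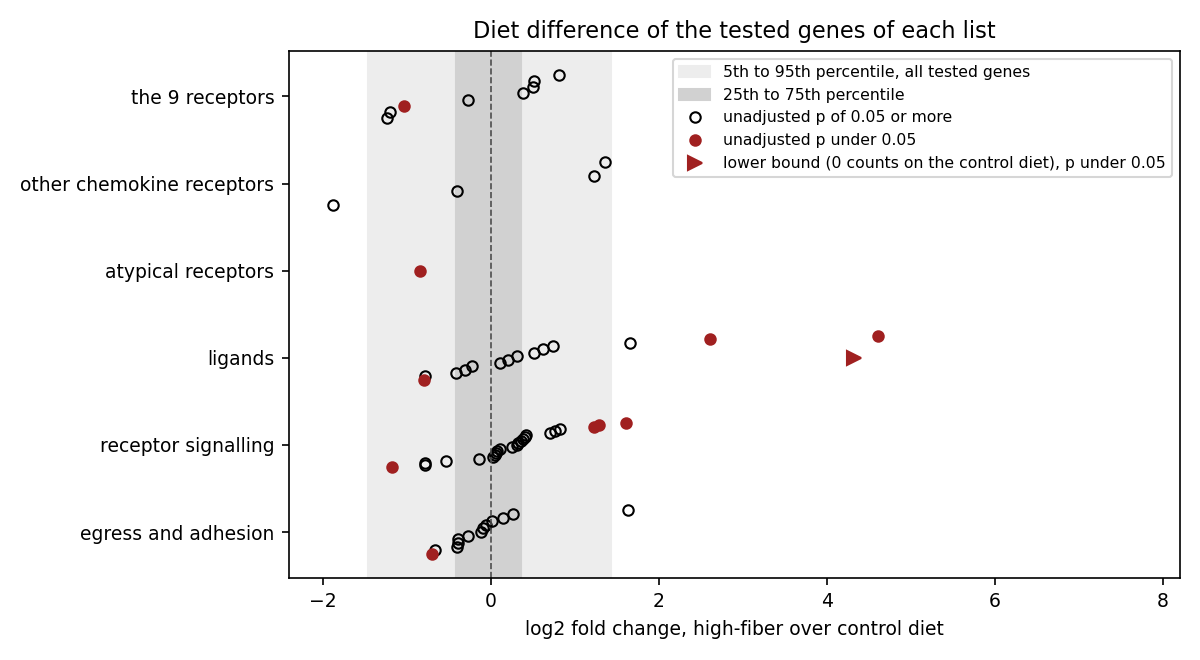
Log2 fold change, high-fiber over control diet, of each tested gene of the 9 receptors and the 5 related lists, with filled points for an unadjusted p under 0.05 and grey bands for the spread of all tested genes. The triangle is the lower bound of Cxcl11, which had 0 counts on the control diet, and Ccr2 (-1.03), Ccrl2 (-0.84), Ccl1 (-0.79) and Cd69 (-0.69) are filled points left of 0.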

How the data were processed

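RNA of sorted ILC2s was made into SMARTer ultra-low-input libraries, per the labels' protocols, which copy polyadenylated RNA and amplify it by PCR. The submitters' processing notes name CASAVA 1.8.2, STAR 2.3.0 and mm10. The counting program was not given in the sources used here, nor was its strand setting. Values deposited by the authors are whole read counts per NCBI gene with no normalization. Symbols came from RefSeq (25275 of 27179 identifiers matched) and exon lengths from GENCODE M21, both on GRCm38. Counts were tested in R 4.3.3 with edgeR 4.0.16 (filterByExpr, TMM, glmQLFit with legacy=FALSE, glmQLFTest), with Benjamini-Hochberg adjustment over 11841 genes. Diet was the only term beside the intercept, leaving 2 residual degrees of freedom. The legacy=FALSE setting followed an earlier analysis of these data, and legacy=TRUE is an alternative. CPM used TMM-scaled library sizes, and intervals and floors of 3 counts cover counting error only.

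Alternatives were other scalings and filters, legacy=TRUE, a replicate block, robust fitting, each library left out, an adjusted p of 0.1, limma-voom (limma 3.58.1) and DESeq2 1.42.0. DESeq2 without each library was added after seeing the data. The members, lists and tests were chosen with earlier results of these data known. Named genes were all 9 members and, per list, the 3 of smallest p and the 3 of highest level, and any further example was picked with its values in view. A gene of the list of other chemokine receptors counts in its totals but is not reported here by itself.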

Additional observations from a re-analysis of the deposited data

How the results depend on the processing

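The count of receptors called was 0 under every alternative that kept all libraries. DESeq2 without high-fiber library 2, which leaves that diet without a replicate, gave log2 fold changes of -1.20 for Ccr2 and 1.29 for Ccr4. Ccr2, Ccr4, Ccr8, Ccr9, Cxcr4 and Cxcr6 kept their sign under all alternatives. So did Gpr15 where it was tested, which the filter of 5 CPM did not allow. In all of these but Ccr4 the diets did not overlap, so leaving out a library could hardly change the sign. Their kept signs are therefore no separate support for a diet difference. Over the 4 fits without a library, the log2 fold change of Ccr1 ran from -0.29 to 1.20. It turned to -0.29 without high-fiber library 2 and to -0.066 without control library 1, and with DESeq2 to -0.37 without high-fiber library 2. The fitted log2 fold change of Gpr15 was -8.57 without high-fiber library 1, a value against a library with 0 counts that is no measure of size.

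The 4 genes called over all genes became 0 without a filter, 9 with 5 CPM in 2 libraries, 236 with DESeq2, 0 with limma-voom, 0 with legacy=TRUE and 0 with the replicate block. They were 0 to 1 without each library with edgeR, and with DESeq2 776 and 194 without high-fiber libraries 1 and 2 and 151 and 109 without control libraries 1 and 2. Among the 5 lists, where edgeR called 0 genes, DESeq2 called 3 with all libraries (Gnb1, Gng2 and Ccrl2), beside 1.88% of all genes. The cause was not tested.

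The labels do not say that a replicate number marks a shared batch. Deviations of same-numbered libraries from their group means correlated at 0.0408 across genes, so the numbers were not taken as pairs. With 2 mice per diet, 0 passing receptors does not show that their levels were alike.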

Other observations

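For each tested receptor the genes with the most similar profile over the 4 libraries were sought among 7689 or 7690 genes with a mean of at least 10 CPM, by the root mean square difference of log2(CPM + 1) values centred on each gene's mean. Only 4 values enter each comparison, so these matches describe the libraries and carry no test. Nearest to Ccr8 were Mysm1 (0.0217), Eef1g (0.0226) and Vrk3 (0.0229). Mysm1 was at 142 and 146 CPM in the high-fiber libraries and 186 and 154 CPM in the control libraries. Nearest to Cxcr6 were Armcx5 (0.0195), Tprgl (0.0240) and Ppie (0.0245), and Tprgl was at 715 and 718 CPM in the high-fiber libraries and 598 and 528 CPM in the control libraries. Nearest to Ccr2 were Tmem273 (0.0557), Dcakd (0.0612) and Lhpp (0.0772). Tmem273 was at 35.8 and 46.3 CPM in the high-fiber libraries and 62.5 and 98.3 CPM in the control libraries. The nearest gene was Mib1 for Ccr4 (0.0335), Sft2d1 for Cxcr4 (0.0214), Dnajb4 for Ccr9 (0.0527), Saal1 for Ccr1 (0.0942) and Tsc22d4 for Gpr15 (0.0185). Gpr15 lay between 0 and 2.00 CPM, where the added 1 shrinks differences between libraries, so its small value does not mark a close match. Tsc22d4 was at 95.4 and 38.8 CPM in the high-fiber libraries and 114 and 115 CPM in the control libraries.

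The ratio of Ccr4 to Ccr2 counts, 2.22 and 0.770 on the high-fiber diet and 0.585 and 0.266 on the control diet, put both high-fiber libraries above the 2 control libraries. On the log2 scale it averaged 0.39 ± 1.08 on the high-fiber diet and -1.34 ± 0.80 on the control diet (SD, n = 2 each), so its spread within a diet was far larger than that of the ratio of Ccr8 to Cxcr6. The pair was chosen after the values were seen, and the exact permutation p was 0.333, the smallest that 2 against 2 allows.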
